A study of Arabidopsis thaliana with 24 samples.

Results

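Suberin and the Casparian strip are the barriers of the root endodermis, and 5 genes of suberin and related lipids were followed here in Arabidopsis thaliana roots after the withdrawal of phosphate (Pi). They are CER4 (AT4G33790, also called FAR3), FAR1 (AT5G22500), FAR5 (AT3G44550), ASFT (AT5G41040, listed as RWP1 in NCBI's gene table) and CYP86B1 (AT5G23190). They were chosen by locus from a list of 8 loci known from the biosynthesis of suberin and related lipids and from the Casparian strip. A gene was followed where a probe set of the array named that locus alone. This held for 5 of the 8 loci, with 1 probe set each, out of 16842 genes named in the same way. For the other 3 loci, those of GPAT5, CYP86A1 and CASP1, no probe set named the gene alone here and they were not analysed. The Casparian strip is therefore described below only through other genes of a wider list.

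The Casparian strip is a band of lignin in the walls between endodermal cells that stops solutes from passing between the cells. It is placed by the membrane proteins of the CASP family. Suberin is a polyester of fatty acid derivatives, glycerol and ferulate that is laid down later over the whole surface of endodermal cells and limits uptake across their membranes. Its deposition in roots is known to respond to mineral supply. Of the measured genes, FAR1 and FAR5 encode fatty acyl reductases that make primary fatty alcohols of root suberin, each with its own preferred chain length. CYP86B1 is a cytochrome P450 that adds the terminal hydroxyl group to very long chain fatty acids. ASFT is the acyltransferase that joins ferulate to the aliphatic chains. CER4 is a fatty acyl reductase of the same family and is best known for the primary alcohols of the stem cuticular wax.

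The data were 24 arrays of root RNA, 3 in each of 8 groups. Plants were grown in nutrient solution to 30 days of age with 10 h of light a day and 1.5 mM Pi in the solution, and all were washed in 0.1 mM EDTA and transferred to new solution 1 h into the light period. The groups were roots taken 0, 1, 6 and 24 h after transfer to solution without Pi (0 mM, minus Pi) and at the same times after transfer to solution with 1.5 mM Pi (plus Pi). The whole experiment was run 3 times, and each run, called experiment 1, 2 or 3, gave 1 array per group from about 20 plants per time. The labels give no genotype or ecotype. Samples of 0 h and 24 h were taken at the same time of day, whereas those of 1 h and 6 h were taken 2 and 7 h into the light. Time after transfer and time of day cannot be told apart at 1 h and 6 h against 0 h within one Pi supply, while minus Pi and plus Pi roots were compared at the same hour. Because the RNA came from whole roots, fewer cells of a type and less RNA per cell cannot be told apart.

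All levels below are log2 values as deposited, and all differences are on the log2 scale. Array medians lay between 6.34 and 6.45, and arrays of one group correlated with r between 0.9503 and 0.992. The limma model was fitted to all 24 arrays and all 22746 probe sets that are not controls. A difference was called where its p, adjusted by Benjamini-Hochberg over all 22746 probe sets of that comparison, was under 0.05. SPX1, a gene induced by Pi starvation, rose by 1.63 (SE 0.358, n = 3 and 3, limma adjusted p = 0.0074) at 6 h and by 3.17 (adjusted p = 0.000302) at 24 h in minus Pi against plus Pi roots. Of the markers of the endodermis itself, SCR had a mean level of 8.35, CASP4 of 6.56 and MYB36 of 5.61, while CASP5, at 3.98, lay at the 9.67th percentile of all probe sets. No probe set named CASP2 or ESB1 alone.

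CER4 fell in roots without Pi, and the other measured genes did not pass the test between the Pi supplies at any time. At 0 h the CER4 level in experiments 1, 2 and 3 was 7.69, 7.71 and 7.12 in plus Pi roots and 8.15, 7.74 and 7.11 in minus Pi roots. The ranges overlapped, and the difference of minus Pi less plus Pi was 0.16 (95% interval -0.43 to 0.76). At 1 h the levels were 7.02, 7.13 and 6.96 with Pi and 6.83, 6.62 and 6.00 without it. The minus Pi array was the lower one in all 3 experiments and the ranges did not overlap, but the difference of -0.55 (95% interval -1.15 to 0.04, limma adjusted p = 0.535) was not called.

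At 6 h the CER4 level was 6.63, 7.18 and 6.56 in plus Pi roots and 4.49, 5.20 and 4.18 in minus Pi roots. Every minus Pi array was more than 1 log2 unit below every plus Pi array. CER4 was 4.49-fold lower without Pi (log2 difference -2.17, SE 0.284, 95% interval -2.76 to -1.57, n = 3 and 3, limma adjusted p = 0.00015). The difference was -2.14, -1.98 and -2.38 in the 3 experiments. It ranked 24th from the lowest of the 22746 probe sets. CER4 was the only one of the 5 genes called at this time, when 9.65% of all probe sets were called in either direction and 5.69% as lower. A count of 1 in 5 is not far above that background, so the result concerns CER4 and not the 5 genes as a set.

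At 24 h the CER4 level was 7.78, 7.38 and 7.22 with Pi and 6.15, 5.90 and 6.02 without it, again with no overlap. CER4 was 2.71-fold lower (log2 difference -1.44, 95% interval -2.03 to -0.84, limma adjusted p = 0.0294) and lower in 3 of 3 experiments. It was 1 of 5 genes called, against 0.321% of all probe sets in either direction and 0.0967% as lower. The adjusted p was 0.00118 with the experiment as a fixed block. The call was lost when any one experiment was left out (limma adjusted p 0.0805 to 0.662). The difference was then -1.34, -1.42 and -1.55 without experiment 1, 2 and 3. Over all probe sets, 76, 2 and 6 were called in these fits, against 73 with all arrays. The CER4 call was also lost when any one of 5 of the 6 arrays compared was left out, the exception being the plus Pi array of experiment 3. Without each of those 5 arrays the difference lay between -1.50 and -1.28, with adjusted p between 0.0535 and 0.1915. By contrast, the 6 h call was kept in each of these leave-outs.

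**Figure D1:**
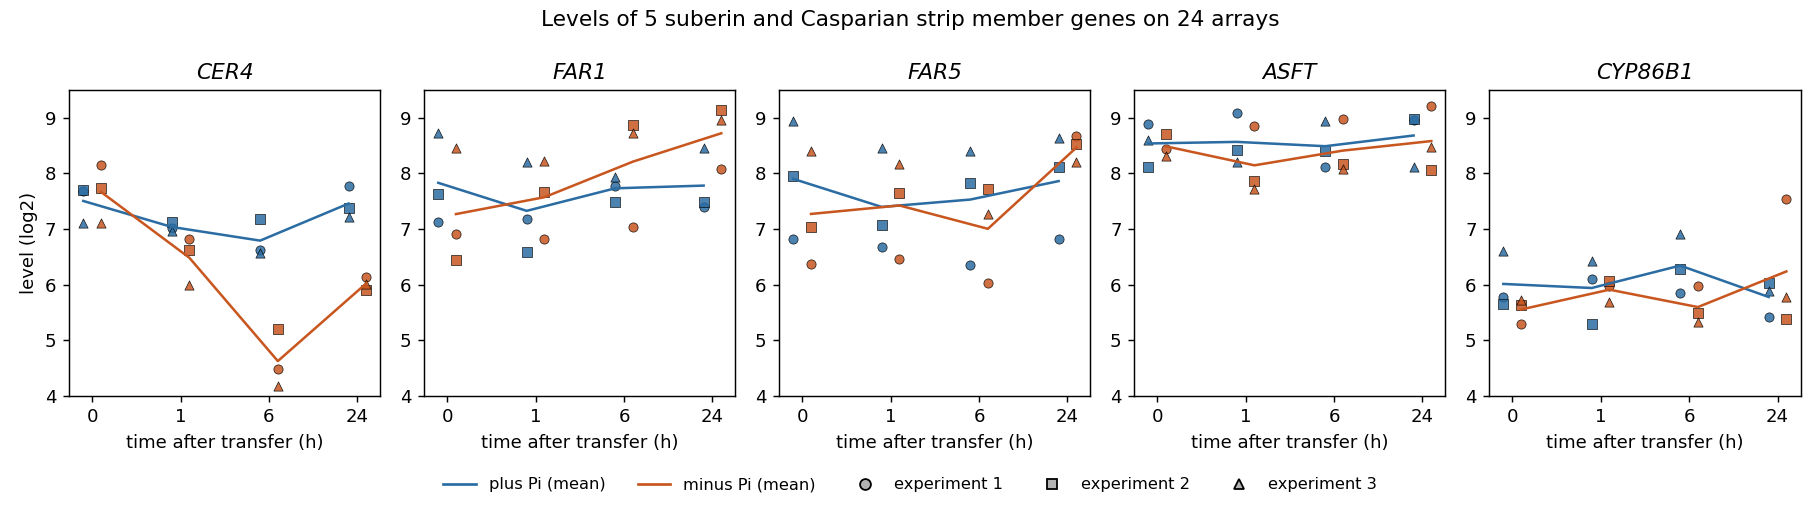
Log2 level of each of the 5 genes (vertical axis, one panel per gene) in every array at 0, 1, 6 and 24 h after transfer (horizontal axis, times equally spaced), with plus Pi in blue and minus Pi in orange, lines through the group means and a marker shape for each experiment. CER4 in minus Pi roots drops to between 4.18 and 5.20 at 6 h, below every other array, whereas the arrays of the other 4 genes overlap between the groups.

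Within minus Pi roots the CER4 level lay between 7.11 and 8.15 at 0 h, between 6.00 and 6.83 at 1 h, between 4.18 and 5.20 at 6 h and between 5.90 and 6.15 at 24 h. It fell by 3.04 (8.25-fold, limma adjusted p = 1.78e-06) from 0 h to 6 h, with differences of -3.66, -2.54 and -2.93 in the 3 experiments. This comparison called 1 of the 5 genes, a share near the background, against 18.4% of all probe sets in either direction and 9.85% as lower. At 24 h CER4 was still 3.13-fold below 0 h (log2 difference -1.65, adjusted p = 0.00276), again as the only gene of the 5 called, against 2.77% of all probe sets and 1.75% as lower. Without experiment 1 that difference was -1.47 (adjusted p = 0.0853), and without experiment 2 it was -1.55 (adjusted p = 0.192). Already at 1 h CER4 differed from 0 h by -1.19 (adjusted p = 0.0522), just short of the threshold. It passed with the experiment as a fixed block (adjusted p = 0.00322, with 3.69% of all probe sets called), and also without the minus Pi 0 h array of experiment 3 (-1.46, adjusted p = 0.0202). At 1 h limma called 0 of the 5 genes and 1.01% of all probe sets, and 1 of the 5 had an unadjusted p under 0.05.

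Within plus Pi roots limma called 0 of the 5 genes at 1, 6 or 24 h against 0 h, when 0.356%, 2.34% and 0.497% of all probe sets were called. At an unadjusted p under 0.05 there were 0, 1 and 0 of the 5. The single one was CER4 at 6 h, with a difference of -0.71 (adjusted p = 0.289), which passed with the experiment as a fixed block (adjusted p = 0.0491, with 6.31% of all probe sets called). At 24 h the plus Pi level of CER4 was within 0.05 of that at 0 h (difference -0.05, 95% interval -0.65 to 0.56).

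The Pi effect on CER4 changed between the times. The difference between the Pi supplies at 6 h less that at 0 h was -2.33 (SE 0.401, 95% interval -3.17 to -1.49, limma adjusted p = 0.00649), with -2.60, -2.02 and -2.37 in the 3 experiments. CER4 was the only one of the 5 called, against 1.87% of all probe sets in either direction and 0.818% as lower. The call was lost without experiment 1 (-2.20, adjusted p = 0.1145) and without experiment 2 (-2.49, adjusted p = 0.192). The Pi effect at 24 h less that at 0 h was -1.60 (adjusted p = 0.2165), which passed with the experiment as a fixed block (adjusted p = 0.0136, with 1.93% of all probe sets called). Between 6 h and 24 h the Pi effect moved back by 0.73 (95% interval -0.11 to 1.57, adjusted p = 0.6285), so a return towards the plus Pi level was not resolved. In the last pair of comparisons limma called 0 of the 5 genes, against 0.127% and 0.259% of all probe sets, and 1 and 0 of the 5 had an unadjusted p under 0.05. These comparisons share arrays with those above and are not independent of them.

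In order of level, the 8 groups of CER4 arrays began with minus Pi at 0 h (7.67 ± 0.522, SD, n = 3), plus Pi at 0 h (7.50 ± 0.336) and plus Pi at 24 h (7.46 ± 0.289), whose arrays overlapped. Next came plus Pi at 1 h (7.04 ± 0.0879), plus Pi at 6 h (6.79 ± 0.343), minus Pi at 1 h (6.48 ± 0.434) and minus Pi at 24 h (6.02 ± 0.122), each overlapping the next. The arrays of plus Pi at 1 h lay below those of plus Pi at 24 h but overlapped both groups of 0 h. The lowest group, minus Pi at 6 h (4.62 ± 0.523), overlapped no other.

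**Figure D2:**
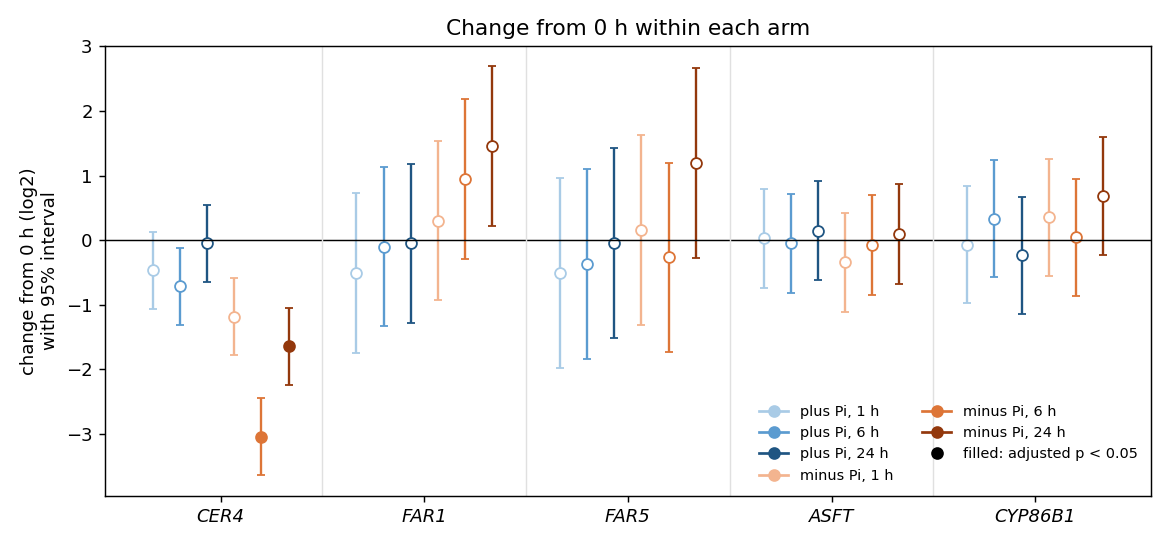
Change in log2 level from 0 h (vertical axis) at 1, 6 and 24 h (horizontal axis) in plus Pi and minus Pi roots for each of the 5 genes, with 95% intervals from the limma fit, n = 3 arrays per group. CER4 in minus Pi roots lies at -1.19, -3.04 and -1.65, while its plus Pi values are -0.47, -0.71 and -0.05.

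FAR1 and FAR5, the reductases of suberin alcohols, were not called in any comparison between the Pi supplies. At 0 h the FAR1 level in experiments 1, 2 and 3 was 7.13, 7.63 and 8.73 with Pi and 6.91, 6.44 and 8.46 without it. At 1 h it was 7.19, 6.58 and 8.21 with Pi and 6.82, 7.67 and 8.22 without it. At 6 h it was 7.77, 7.49 and 7.94 with Pi and 7.03, 8.87 and 8.73 without it. The ranges overlapped at each of these times. At 24 h it was 7.40, 7.49 and 8.45 with Pi and 8.07, 9.14 and 8.95 without it. The minus Pi array was the higher one in all 3 experiments at 24 h, by 0.67, 1.65 and 0.50, but the ranges overlapped and the difference of 0.94 (95% interval -0.29 to 2.18, limma adjusted p = 0.723) was not called. With the experiment as a fixed block the SE of the 24 h difference was 0.385 instead of 0.589. It was still not called (blocked limma adjusted p = 0.191). At 0, 1 and 6 h the Pi difference was -0.56, 0.25 and 0.48, and each 95% interval without the block included 0. That at 6 h ran from -0.76 to 1.72 and lay wholly above the interval of CER4, although the difference between the genes was not tested.

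In minus Pi roots the group mean of FAR1 was 7.27, 7.57, 8.21 and 8.72 at 0, 1, 6 and 24 h. From 0 h to 24 h the difference was 1.45 (2.74-fold, 95% interval 0.22 to 2.69, limma adjusted p = 0.241), with 1.16, 2.71 and 0.49 in the 3 experiments. It was not called, but passed with the experiment as a fixed block (adjusted p = 0.0227), where 10.5% of all probe sets were called. In order of level the FAR1 groups ran from minus Pi at 24 h (8.72 ± 0.571) and minus Pi at 6 h (8.21 ± 1.02), through plus Pi at 0 h (7.83 ± 0.815), 24 h (7.78 ± 0.580) and 6 h (7.73 ± 0.226), to minus Pi at 1 h (7.57 ± 0.707), plus Pi at 1 h (7.33 ± 0.823) and minus Pi at 0 h (7.27 ± 1.06). Every neighbour in that order overlapped.

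For FAR5 the plus Pi arrays read 6.81, 7.95 and 8.94 at 0 h, 6.67, 7.06 and 8.46 at 1 h, 6.36, 7.83 and 8.40 at 6 h and 6.82, 8.12 and 8.64 at 24 h. The minus Pi arrays read 6.37, 7.04 and 8.39 at 0 h, 6.46, 7.64 and 8.17 at 1 h, 6.02, 7.72 and 7.27 at 6 h and 8.67, 8.52 and 8.20 at 24 h. The groups overlapped at all 4 times, and experiments 1 to 3 lay far apart except in the minus Pi group at 24 h. The Pi difference was -0.63, 0.03, -0.53 and 0.60 at 0, 1, 6 and 24 h, and none was called. At 24 h its 95% interval ran from -0.87 to 2.07, and the experiments gave 1.85, 0.40 and -0.45, so the sign was not shared. In order of level, the highest FAR5 group was minus Pi at 24 h (8.46 ± 0.240) and the lowest was minus Pi at 6 h (7.003 ± 0.877), with the other 6 group means between 7.27 and 7.90 and every neighbour overlapping.

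ASFT, the feruloyl transferase, had the flattest profile of group means. All of its arrays lay between 7.72 and 9.22, and its group means between 8.15 (± 0.620, minus Pi at 1 h) and 8.68 (± 0.495, plus Pi at 24 h), with every neighbour overlapping. In plus Pi roots the ASFT level was 8.89, 8.12 and 8.61 at 0 h, 9.08, 8.42 and 8.20 at 1 h, 8.12, 8.41 and 8.94 at 6 h and 8.95, 8.98 and 8.11 at 24 h. In minus Pi roots it was 8.45, 8.71 and 8.31 at 0 h, 8.86, 7.86 and 7.72 at 1 h, 8.98, 8.17 and 8.08 at 6 h and 9.22, 8.06 and 8.47 at 24 h. The ranges of the Pi supplies overlapped at every time. The Pi difference was -0.05 at 0 h, -0.42 at 1 h, -0.08 at 6 h and -0.10 at 24 h. At 1 h the minus Pi array was the lower one in 3 of 3 experiments, with a 95% interval of -1.19 to 0.35. At 6 h the interval of -0.85 to 0.69 lay wholly above that of CER4.

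CYP86B1, the hydroxylase of very long chain fatty acids, read 5.84, 6.27 and 6.91 with Pi and 5.97, 5.48 and 5.33 without it at 6 h. The minus Pi array was lower in 2 of 3 experiments, by 0.79 and 1.58, and the difference of -0.75 (95% interval -1.65 to 0.16, limma adjusted p = 0.344) was not called. At 24 h it read 5.42, 6.03 and 5.88 with Pi and 7.55, 5.38 and 5.78 without it. One array, that of experiment 1 without Pi, stood apart. The difference of 0.46 (95% interval -0.45 to 1.37) became -0.20 without it. At 0 h it read 5.78, 5.65 and 6.60 with Pi and 5.29, 5.63 and 5.73 without it, and at 1 h 6.11, 5.29 and 6.42 with Pi and 5.98, 6.06 and 5.69 without it. The ranges overlapped at all 4 times, and at 0 and 1 h the difference was -0.46 and -0.03. The groups ran from plus Pi at 6 h (6.34 ± 0.537) and minus Pi at 24 h (6.24 ± 1.15) to minus Pi at 0 h (5.55 ± 0.229), and every neighbour overlapped.

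Between the Pi supplies limma called 0 of the 5 genes at 0 h, where 0% of all probe sets were called, and 0 of the 5 at 1 h, where 1.13% were. None of the 5 had an unadjusted p under 0.05 at either time, against 301 and 2361 probe sets in all.

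**Figure D3:**
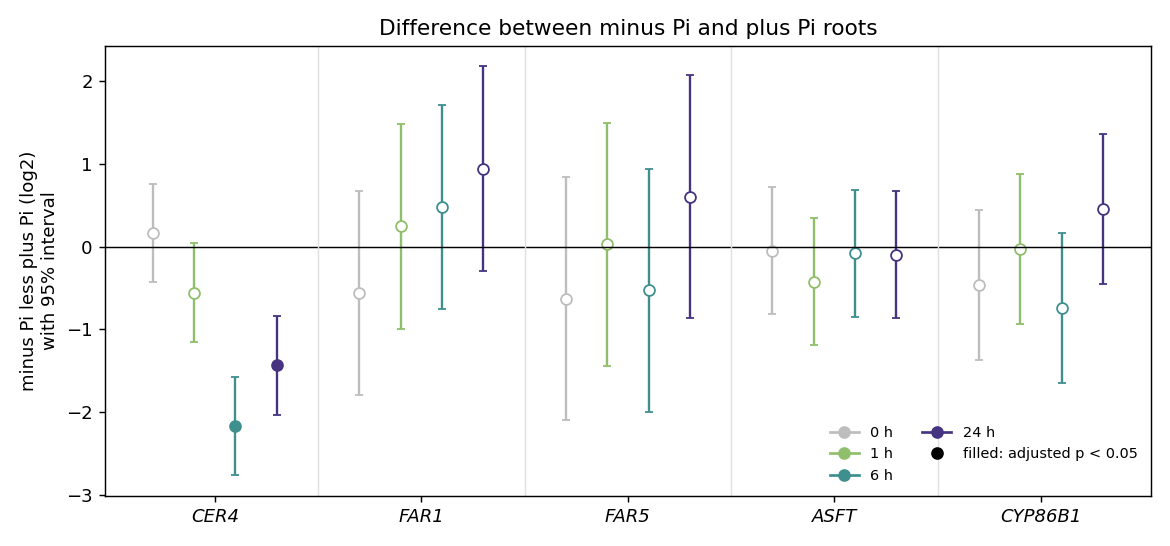
Difference of log2 level, minus Pi less plus Pi (vertical axis), at 0, 1, 6 and 24 h (horizontal axis) for each of the 5 genes, with 95% intervals from the limma fit, n = 3 and 3 arrays; filled symbols are differences with an adjusted p under 0.05. The filled symbols are CER4 at 6 h (-2.17) and at 24 h (-1.44). In this fit, which has no block for the experiment, the 95% intervals of the other 4 genes include 0 at every time.

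The genes differed in what their arrays followed. Of the variance over the 24 arrays, the 8 groups held 90.9% for CER4 and the experiment 4.7%. For FAR5 the groups held 24.6% and the experiment 54.6%, and for FAR1 the groups held 33.5% and the experiment 40.2%. The mean level of FAR5 was 6.77, 7.74 and 8.31 in experiments 1, 2 and 3, and that of FAR1 was 7.29, 7.66 and 8.46. Experiment 3 gave the highest FAR1 array in 6 of 8 groups and the highest FAR5 array in 6 of 8, while it gave the lowest CER4 array in 7 of 8. For ASFT the groups held 12.9% and the experiment 31.9%, and for CYP86B1 24.6% and 6.96%. What differed between the experiments was not tested.

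Across the 24 arrays, with each experiment's mean removed, the 10 pairs among the 5 genes were loosely related. As a description, r was 0.66 (rho 0.47) for FAR5 and CYP86B1, 0.51 (rho 0.36) for FAR1 and FAR5, 0.51 (rho 0.48) for ASFT and CYP86B1, and -0.46 (rho -0.37) for CER4 and FAR1. The other 6 pairs lay between -0.27 and 0.26. The arrays of a pair share their RNA and their groups, so these values are not independent observations.

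Each gene's closest profiles over the same 24 arrays, again with each experiment's mean removed and among 17005 probe sets with 1 gene, came from different genes. The 3 most like CER4 were AT1G23030 (r = 0.956), AT5G22310 (r = 0.952) and AT4G25250 (r = 0.939). Their differences between minus Pi and plus Pi roots were -1.43, -0.83 and -2.78 at 6 h and -0.70, -0.54 and -1.55 at 24 h. Since they were picked on these arrays for their likeness to CER4, these values are a description. The closest to FAR1 were AT3G58550 (r = 0.928), AT2G18360 (r = 0.927) and FACT (r = 0.921), the last of which makes alkyl caffeates of root waxes. FAR5 was closest to AT1G23330 (r = 0.935), to QRT1 (r = 0.897), a pectin methylesterase known from pollen, and to FAR4 (r = 0.889), the suberin reductase that neighbours it on chromosome 3. CYP86B1 was closest to AT1G74460 (r = 0.954), AT2G43390 (r = 0.952) and ABCG20 (r = 0.952), a transporter needed for the suberin barrier. ASFT had the loosest neighbours, AT3G22620 (r = 0.816), PLP8 (r = 0.775) and AT4G17280 (r = 0.717). On the values as deposited, 3 of these 15 genes were not among the closest 3: FAR4 ranked 18th for FAR5, and AT1G23030 and AT4G25250 ranked 8th and 4th for CER4.

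The rest of the suberin list held 15 measured genes of 27. Between the Pi supplies limma called 2 of the 15 (13.3%) at 6 h, both as lower. That share was not far from the 9.65% of all probe sets called in either direction, while 5.69% were called as lower. The pair were CER10 and PAS2, the enoyl-CoA reductase and the hydroxyacyl-CoA dehydratase of the complex that elongates fatty acids. CER10 read 9.57, 9.66 and 9.81 with Pi and 9.22, 9.05 and 9.004 without it, a difference of -0.59 (SE 0.130, adjusted p = 0.00765). PAS2 read 8.46, 8.36 and 8.48 with Pi and 8.07, 7.86 and 7.86 without it, a difference of -0.51 (SE 0.124, adjusted p = 0.0134). Neither pair of groups overlapped. Within minus Pi roots both also fell from 0 h to 6 h, by 0.61 (adjusted p = 0.00281) and 0.54 (adjusted p = 0.00511). They were the only 2 of the 15 called there, against 18.4% of all probe sets in either direction and 9.85% as lower. That comparison shares the minus Pi arrays of 6 h with the one between the Pi supplies.

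The median Pi difference of the 15 suberin genes at 6 h was -0.14, with 12 of 15 below 0, against a median of -0.02 over all probe sets, and it ranged from -0.35 (without the plus Pi array of experiment 1) to -0.06 (without that of experiment 3) when single arrays were left out. The count of 2 was smaller in part of the leave-outs. It was 1 without the 3 arrays whose scan number is out of run (plus Pi at 1 h and minus Pi at 6 h and 24 h, all of experiment 2), and 1 without the 2 arrays that carry a second scan file (minus Pi at 1 h and 6 h, experiment 3). It was 1, 0 and 0 without experiment 1, 2 and 3. At 24 h none of the 15 was called by limma, 2 had an unadjusted p under 0.05, the median was 0.22 and 11 of 15 were above 0. Without the minus Pi array of experiment 1 that median was 0.06, and without the minus Pi array of experiment 2 it was 0.38. At 0 h and 1 h limma called 0 of 15, and 0 had an unadjusted p under 0.05. The Pi effect at 24 h less that at 6 h was above 0 for 14 of 15, with a median of 0.52 against 0.02 over all probe sets. Without the minus Pi 24 h array of experiment 1 the median was 0.33 and 13 of 15 were above 0. Limma called none of these 15 differences, and 4 had an unadjusted p under 0.05. With the experiment as a fixed block, 2 of the suberin genes were higher at 24 h than at 0 h in minus Pi roots, a share near the 10.5% of all probe sets called in that fit. They were FAR4 (1.26, blocked adjusted p = 0.0183) and FACT (1.22, blocked adjusted p = 0.0470), named above as close to FAR5 and FAR1. Without the block neither was called (adjusted p = 0.2077 and 0.3487).

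Of the Casparian strip list, 12 of 19 genes were measured, and limma called 0 of 12 between the Pi supplies at 0, 1, 6 or 24 h. At an unadjusted p under 0.05 there were 0, 0, 0 and 1. The medians were 0.08, -0.27, 0.14 and -0.14, and 11 of 12 were below 0 at 1 h. The median changed sign without the minus Pi array of experiment 1 at 6 h (-0.14) and, at 24 h, with the plus Pi array of experiment 1 left out (0.07). CASP4, of the CASP family of scaffold proteins, read 7.69, 7.30 and 7.04 at 0 h and 6.64, 5.62 and 6.08 at 6 h in minus Pi roots. It fell by 1.23 (SE 0.408, limma adjusted p = 0.0425) and was lower in 3 of 3 experiments, as the only gene of the 12 called, when 18.4% of all probe sets were called. This call was lost without the arrays out of run, without those with a second scan file, and without experiment 2 or 3. In plus Pi roots CASP4 differed by -0.46 from 0 h to 6 h. Its Pi difference was 0.56 at 0 h and -0.21 at 6 h, and none of these was called. Already at 1 h CASP4 in minus Pi roots differed from 0 h by -1.27. That was called only with the experiment as a fixed block (limma adjusted p = 0.00905, with 3.69% of all probe sets called).

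At 24 h CASP4 read 7.60, 7.36 and 6.53 with Pi and 6.32, 5.70 and 5.72 without it. The groups did not overlap, and the difference of -1.25 (-1.29, -1.66 and -0.81 in the 3 experiments) had an adjusted p of 0.272. It passed with the experiment as a fixed block (adjusted p = 0.0120), where 4.01% of all probe sets were called. From 0 h to 24 h in minus Pi roots limma without the block called 0 of the 12 genes. With the block it called CASP4 (-1.43, adjusted p = 0.0020) and PER64 (-1.10, adjusted p = 0.0141) as lower, when 10.5% of all probe sets were called. The blocked Pi effect at 24 h less that at 0 h was also called for CASP4 (-1.81, limma adjusted p = 0.0206), with 1.93% of all probe sets. Between the Pi supplies the blocked fit had the peroxidase gene PER72 higher at 6 h (0.99, adjusted p = 0.0236), when 22.5% of all probe sets were called. Without the block the adjusted p of PER72 was 0.2955. SCR, the transcription factor that marks the endodermis, differed between the Pi supplies by -0.11 at 6 h and by -0.02 at 24 h. From 0 h to 6 h it differed by -0.37 in minus Pi roots and by -0.27 in plus Pi roots. With the block only the minus Pi fall was called (limma adjusted p = 0.0451), when 7312 of the 22746 probe sets were called.

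**Figure D4:**
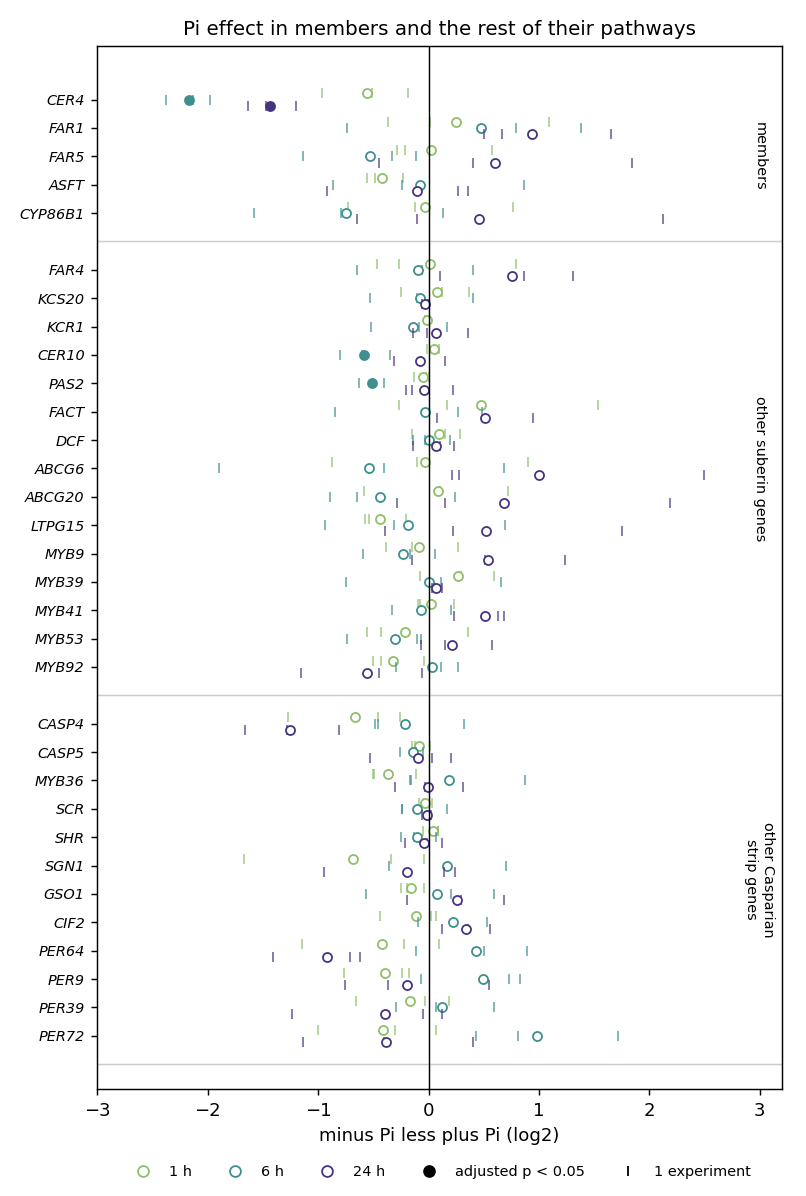
Difference of log2 level, minus Pi less plus Pi (horizontal axis), at 1, 6 and 24 h for the 5 genes, the 15 other measured suberin genes and the 12 other measured Casparian strip genes (vertical axis); circles are means of 3 and 3 arrays, filled where the limma adjusted p was under 0.05, and ticks are the 3 experiments. The filled circles are CER4 at 6 h and 24 h and CER10 (-0.59) and PAS2 (-0.51) at 6 h; no Casparian strip gene is filled.

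The phenylpropanoid pathway supplies ferulate to suberin and monolignols to the Casparian strip, and 7 of 16 genes of that list were measured. At 6 h all 7 lay above 0 (median 0.42), and limma called 1 of 7, against 9.65% of all probe sets. It was CCoAOMT1, a methyltransferase of lignin and ferulate synthesis, which rose by 0.45 (SE 0.130, adjusted p = 0.0349) in minus Pi against plus Pi roots. At an unadjusted p under 0.05 there were 5 of 7, against 5131 of the 22746 probe sets. With the experiment as a fixed block, when 22.5% of all probe sets were called, CYP98A3 (0.34) and PAL2 (0.78) were also higher. The call of CCoAOMT1 was lost without any one experiment, without the arrays out of run and without those with a second scan file. At 24 h limma called 0 of 7, 0 had an unadjusted p under 0.05, and the median was 0.21.

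The list of cutin genes and paralogs, which are active mainly in shoots and flowers, had 5 measured genes of 16. Limma called 0 of 5 between the Pi supplies at any time, and 0, 0, 1 and 0 had an unadjusted p under 0.05 at 0, 1, 6 and 24 h. The reductase paralogs FAR6, FAR7 and FAR8 had mean levels of 4.14, 4.12 and 4.05, in the lowest 13.8% of all probe sets. Levels of different probe sets are otherwise not compared here, since probes differ in brightness.

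Markers of other root cell types were measured beside CER4. All 4 measured root hair genes were below 0 at 6 h (median -0.92) and at 24 h (median -0.85), and limma called 0 of 4 at either time, with 1 at an unadjusted p under 0.05 at each. All 4 were above 0 at 0 h (median 0.69) and below 0 at 1 h (median -0.56), with 0 called. With the experiment as a fixed block 3 were lower at 6 h and 1 at 24 h, against 22.5% and 4.01% of all probe sets called. At 1 h the block called EXPA7 as lower (-1.83, limma adjusted p = 0.00419), when 902 of the 22746 probe sets were called. Their mean level lay between 7.63 and 8.18 in the plus Pi arrays at 6 h and between 6.50 and 7.53 in the minus Pi arrays. COBL9, a root hair gene, fell from 0 h to 6 h in minus Pi roots by 1.46 (limma adjusted p = 0.00671). In plus Pi roots 3 of the 4 root hair genes lay higher at 6 h than at 0 h (median 0.77), and limma called 0 of them. The 4 xylem genes had a median of -0.16 at 6 h and -0.63 at 24 h, where all 4 were below 0. Limma called 0 of the 4 at both times, with 0 and 2 at an unadjusted p under 0.05. With the experiment as a fixed block 1 of the 4, the cellulose synthase gene CESA4, was lower at 24 h (-0.69, adjusted p = 0.0324). The mean level of the xylem genes at 24 h lay between 7.17 and 8.07 with Pi and between 6.69 and 7.25 without it. The stele gene SHR differed by -0.10 at 6 h and -0.04 at 24 h. Mean levels of the 4 shoot genes lay between 5.12 and 6.80 over all arrays. Limma called 0 of 4 between the Pi supplies at any time, with 0 at an unadjusted p under 0.05. From 0 h to 6 h it called 1 of the 4 as higher in each Pi supply. Of all probe sets, 18.4% were called in that comparison in minus Pi roots and 2.34% in plus Pi roots. The part of these cell types in the fall of CER4 was not tested.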

How the data were processed

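The log2 values of 24 arrays, 3 per group, came from the authors' deposited value table (2.61 to 14.2). The steps of probe summary and normalization are not given in the sources used here. Limma was used by the authors, per the submitters' processing notes. A second table, of the authors' own comparisons at each time, gives log2 differences, p-values and limma's statistics, which are scores per the file headers. For CER4 the authors' deposited table gave -2.17 at 6 h and -1.44 at 24 h, and its p-values of 0.000151 and 0.0295, whose adjustment the header does not name, lay close to the adjusted p of the limma fit here. Of 22810 probe sets, 64 controls were left out. The deposited locus column, or the platform annotation where it was blank, named 1 gene for 17006 probe sets, several for 661 and none here for 5079. Symbols came from NCBI's TAIR10.1 gene table, and no coordinates were used.

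A mean per group was fitted in R 4.3.3 with limma 3.58.1 (16 residual degrees of freedom), with 13 contrasts each adjusted by Benjamini-Hochberg over 22746 probe sets. The number of arrays limits the precision. The members and gene lists were chosen with earlier results of these data known. Genes outside the members were named by rule: up to 4 called genes per list, contrast and direction, the 3 closest profiles per member, and SPX1. Those called only with the experiment as a block, and endodermis and cell type markers, were named after their values were seen. In the labels, arrays of one experiment number come from one run of all 8 groups, and were taken as paired. Deviations from group means correlated within an experiment with a mean r of 0.554 (0.0984 to 0.836). It was added as a fixed block, or as a random block (statmod 1.5.0, correlation 0.384). Other alternatives were the arrays fitted, scaling, a filter on level, an intensity trend, suspect scans and leaving out arrays or experiments. In a simulation of the 6 h comparison between Pi supplies, over 22746 probe sets, the fit recovered 86% of 100 probe sets changed by 1 log2 unit and 96% of 100 changed by 2. The simulated noise was independent between arrays, with no effect of the experiment, and the changed probe sets were drawn at random. These shares therefore do not tell how often such a change would be called in FAR1, FAR5 or CYP86B1. The SE of their Pi difference at 6 h was 0.589, 0.6995 and 0.432. No pair of arrays was identical. Sequences of the genes are not shown here.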

Additional observations from a re-analysis of the deposited data

Results flagged for a closer look

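CER4 stood out because its Pi effect differed between times by a test of the difference itself: the difference between minus Pi and plus Pi roots at 6 h less that at 0 h was -2.33 (SE 0.401, limma adjusted p = 0.00649), with the same sign in 3 of 3 experiments. The level in minus Pi roots was 7.67 ± 0.522 (SD, n = 3) at 0 h and 4.62 ± 0.523 at 6 h, while that in plus Pi roots was 7.50 ± 0.336 and 6.79 ± 0.343. Groups of 3 arrays are too small for the test of single outlying arrays.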

How the results depend on the processing

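Of the 5 genes, the count called between the Pi supplies at 24 h went from 1 to 0 when only the arrays compared were fitted (CER4 adjusted p = 0.0791) and without the 3 arrays out of run (-1.38, adjusted p = 0.142), and ranged from 0 to 1 when an array or experiment was left out. In minus Pi roots the count at 1 h went from 0 to 1, always CER4, with the experiment as a fixed or random block and among probe sets at or above the median level (adjusted p = 0.0378), and ranged from 0 to 1 in the leave-outs. The count at 24 h went from 1 to 2 with the fixed or random block, which added FAR1 as higher, to 0 with only the arrays compared (CER4 adjusted p = 0.0526), and ranged from 0 to 1. In plus Pi roots the count at 6 h went from 0 to 1 with the fixed block. The count for the Pi effect at 6 h less 0 h went from 1 to 0 with only the arrays compared (CER4 adjusted p = 0.0652) and ranged from 0 to 1, and that for 24 h less 0 h went from 0 to 1 with the fixed or random block. The block changed no other member's call, and the causes were not tested. The counts at 6 h, between the Pi supplies and within minus Pi roots, stayed at 1 in every alternative run. Median centring, quantile normalization, the intensity trend and leaving out the arrays with a second scan file left all member counts as they were. Of 1267 alternative differences of the 5 genes, 98 belonged to called differences and 0 of those changed sign. Of the 1169 others, 136 changed sign and 9 passed the threshold. The list counts and medians were recomputed under alternatives chosen after seeing the data. The deposited values hold no detection calls, so nothing separates a low level from background.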

Other observations

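One array held unusually high levels of suberin genes. The minus Pi array of experiment 1 at 24 h was the highest of all 24 arrays for 8 of the 15 other suberin genes (53.3%) and for 2 of the 5 genes followed above, ASFT (9.22) and CYP86B1 (7.55), against 4.25% of all probe sets. The genes below were named after their values were seen. ABCG6, a transporter of the suberin barrier, read 9.07 there, against 6.89 and 7.33 in the other 2 arrays of the group and 8.20 in the next highest array of any group. ABCG20 read 8.19, against 6.13 and 6.53 in its group and 7.23 in the next highest array. LTPG15, a lipid transfer protein of suberin, read 10.6, against 8.92 and 9.33, with 9.95 next. FAR4, KCR1, PAS2, MYB9 and MYB53 were also highest there. CER4 in the same array, at 6.15, was close to the 5.90 and 6.02 of its group. Without this array the Pi difference at 24 h was -0.20 for CYP86B1, -0.42 for ASFT, 0.50 for FAR5 and 1.27 for FAR1, none of them called. What set the array apart was not tested.

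The Casparian strip peroxidase gene PER64, which polymerises lignin there and was also named after its values were seen, had a Pi effect at 24 h less that at 6 h of -1.35 (SE 0.624, limma adjusted p = 0.509), with -1.61, -1.30 and -1.13 in the 3 experiments. CASP4 differed in the same comparison by -1.04 and PER72 by -1.37, each below 0 in 3 of 3 experiments and neither called. Over the whole Casparian strip list the difference was below 0 for 7 of 12 genes, with a median of -0.28. The minus Pi array of experiment 1 at 6 h, which enters these differences, was the highest of all 24 arrays for 6 of the 12 genes. That share of 50% stood against 9.64% of all probe sets. Without that array the median was 0.02, with 5 of 12 genes below 0.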
